A study of Homo sapiens with 9 samples.

Results

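The WNT, FZD, DKK and SFRP genes, which encode the secreted WNT ligands, their frizzled receptors and the antagonists that intercept either, were followed in Hec50 cells after transfection of a miR-200c mimic. Members were taken by symbol, as every WNT, FZD, DKK or SFRP gene that stood as the single symbol of a probe set. The rule itself used no measured values, although it was chosen with earlier results of these data known. It gave 34 of 19775 genes, namely 17 WNT ligands, 9 FZD receptors, 4 DKK antagonists and 4 SFRP antagonists, read by 69 probe sets. A further 6 probe sets carried a symbol of these families together with another gene and were left out.

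Hec50 is an established human endometrial cancer line, here in 3 groups of 3 Affymetrix arrays each. Cells of 1 group received the miR-200c mimic at 60 nM for 48 hours, those of another the scrambled negative control RNA at the same dose and time, and those of the last group were mock transfected, with no dose or time given for them. All groups are 1 cell line grown in DMEM with serum, and the labels do not say whether replicates are separate cultures, so the p-values speak only of how these samples vary, and that variation may be technical. The deposited values are log2 expression with each probe set centred on its median over the 9 arrays. Differences between groups can be read from them but no level, and 0 is the middle array. A level class for each probe set, 8 or more, 4 to 8 or below 4 on the log2 scale, was read from the rounding of the stored numbers, and a low class does not show that a gene was silent.

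WNT proteins carry a lipid, are escorted out of the cell by WLS, and bind a frizzled receptor together with LRP5 or LRP6 to stabilise beta-catenin, or with ROR or RYK receptors to act without it. DKK1, DKK2 and DKK4 bind LRP5 and LRP6, while SFRP proteins hold a frizzled-like domain and bind the ligand itself. In the endometrium the pathway works in the growth and regression of the glands under oestrogen and progesterone, and CTNNB1, the beta-catenin gene, is often mutated in endometrioid cancers.

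The arrays labelled mimic differed from the controls at genes known to respond to miR-200c. The ZEB1 probe set 212764_at, for a repressor that miR-200c targets, stood at -1.51, -1.52 and -1.46 in mimic arrays, 0.04, 0 and 0.17 in scrambled arrays and -0.02, 0.04 and 0.17 in mock arrays. The CDH1 probe set 201131_s_at, for E-cadherin, stood at 3.44, 3.26 and 3.08 in mimic arrays, 0.20, -0.19 and 0 in scrambled arrays and -0.46, -0.14 and -0.27 in mock arrays. Probe sets of these genes differed in size, since the log2 change against the scrambled control was 3.26 for 201131_s_at and 0.58 for 201130_s_at of CDH1, and for ZEB1 -1.57 for 212764_at, -1.59 for 210875_s_at, -0.65 for 212758_s_at and -0.17 for 239952_at, where the last was not called (adjusted p = 0.385). ZEB2, checked with them, had smaller log2 changes of -0.27 against the scrambled control and -0.42 against mock (adjusted p = 0.0367 and 0.00283). Its probe sets differed in sign against the scrambled control. There 203603_s_at was at -0.78 and 228333_at at -0.56, while 233031_at at 0.15, 235593_at at 0.11 and 233033_at at 0.04 were not called. By level class, the epithelial markers EPCAM, KRT8 and KRT18 were at 8 or more and KRT19 and CDH1 at 4 to 8, and of the Mullerian lineage factors PAX8 was at 8 or more and EMX2 and ESR1 at 4 to 8. Markers of other cell types were spread over the same classes. Of 4 leukocyte markers measured ITGAM was at 8 or more, CD3E and CD14 at 4 to 8 and PTPRC below 4, and of 5 endothelial markers PECAM1, VWF and TEK were at 4 to 8 and CDH5 and KDR below 4. The fibroblast markers COL1A1 and COL1A2 were at 8 or more and DCN, LUM and PDGFRB at 4 to 8, so the classes alone do not tell the cell types apart.

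The mature strand of the mimic's namesake is shown with its relatives because its seed, bases 2 to 8 in capitals, sets which messages it pairs with. Sequences are from RefSeq on GRCh38.p14, all 5′ to 3′. The first 3 share 1 seed and the other 2 share another.
hsa-miR-200c-3p (chr12:6963742-6963764, plus strand): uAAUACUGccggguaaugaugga
hsa-miR-200b-3p (chr1:1167160-1167181, plus strand): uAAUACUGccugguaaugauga
hsa-miR-429 (chr1:1169055-1169076, plus strand): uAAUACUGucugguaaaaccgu
hsa-miR-141-3p (chr12:6964155-6964176, plus strand): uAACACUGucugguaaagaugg
hsa-miR-200a-3p (chr1:1167916-1167937, plus strand): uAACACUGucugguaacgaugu

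The 250 bases before the annotated start are shown for FZD5 and WNT5A, a receptor and a ligand that moved in opposite directions with the mimic. They are the only members called below whose listed promoter holds the E-box marked here. The listed promoters of WNT9A, DKK1, SFRP5 and WNT5B, also called below, hold none, although WNT9A rose with the mimic as FZD5 did. FZD6 and SFRP1, called below too, are among the 12 members with no listed promoter and were not searched. Capitals mark CACCTG or its reverse complement CAGGTG, the E-box that ZEB1 and SNAI1 are known to bind.
FZD5 (GRCh38.p14, chr2:207769907-207770156, minus strand): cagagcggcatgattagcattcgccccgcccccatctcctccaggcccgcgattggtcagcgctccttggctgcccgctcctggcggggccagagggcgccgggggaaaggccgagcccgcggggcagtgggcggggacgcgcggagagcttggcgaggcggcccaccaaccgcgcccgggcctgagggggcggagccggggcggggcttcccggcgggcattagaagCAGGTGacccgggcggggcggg
WNT5A (GRCh38.p14, chr3:55487307-55487556, minus strand): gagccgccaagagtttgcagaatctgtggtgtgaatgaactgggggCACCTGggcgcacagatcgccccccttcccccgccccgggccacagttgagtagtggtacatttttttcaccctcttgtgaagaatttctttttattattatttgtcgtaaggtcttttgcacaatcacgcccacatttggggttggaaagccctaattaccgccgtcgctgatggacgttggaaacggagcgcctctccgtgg
The E-box begins at -22 from the start in FZD5 and at -204 in WNT5A, and WNT5A has a second listed start, whose 250 bases hold none. Among 25 listed promoters of 22 members, 5 held it on either strand (20%), those of FZD5, WNT2B, WNT5A, WNT7A and WNT9B, against 17.5% of all 35116 promoters. The TCF motif CTTTGAA or its reverse complement was in 1 member promoter, that of DKK1, against 3.8% of all promoters, and CTTTGAT in 0 of the 25, against 2.26%. The member promoters were richer in G and C, at a median of 72.4% beside 58% of all promoters, and the shares were not adjusted for this. A match is a string of letters and does not show binding.

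Differences were tested with limma over all 19775 genes, and "called" below means a p under 0.05 after Benjamini-Hochberg adjustment. In the mimic against the scrambled control, 2 members were higher (5.88%) and 3 lower (8.82%), beside 7.63% and 7.01% of all genes. Against mock, 2 were higher (5.88%) and 5 lower (14.7%), beside 8.39% and 10.2% of all genes. The scrambled control against mock held 0 higher and 3 lower (8.82%), beside 2.74% and 5.26%. At an unadjusted p under 0.05 limma counted 0 higher (0%) and 7 lower (20.6%) there, beside 12.1% and 12.1% of all genes. Counted the same way, the mimic held 8 higher (23.5%) and 3 lower (8.82%) against the scrambled control, beside 13.2% and 13.7%. Against mock it held 5 higher and 5 lower (14.7% each), beside 15.2% and 15.6%. What follows is about single genes, and nothing about the families as a whole is read from these counts. The median log2 change of the 34 members was 0.00, 0.02 and 0.01 in the 3 comparisons, where all genes had -0.01, 0.01 and 0.02. In all, 8 of 34 members (23.5%) were called in at least 1 comparison, beside 25.5% of all genes. The comparisons share samples, so their counts are not independent.

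**Figure D1:**
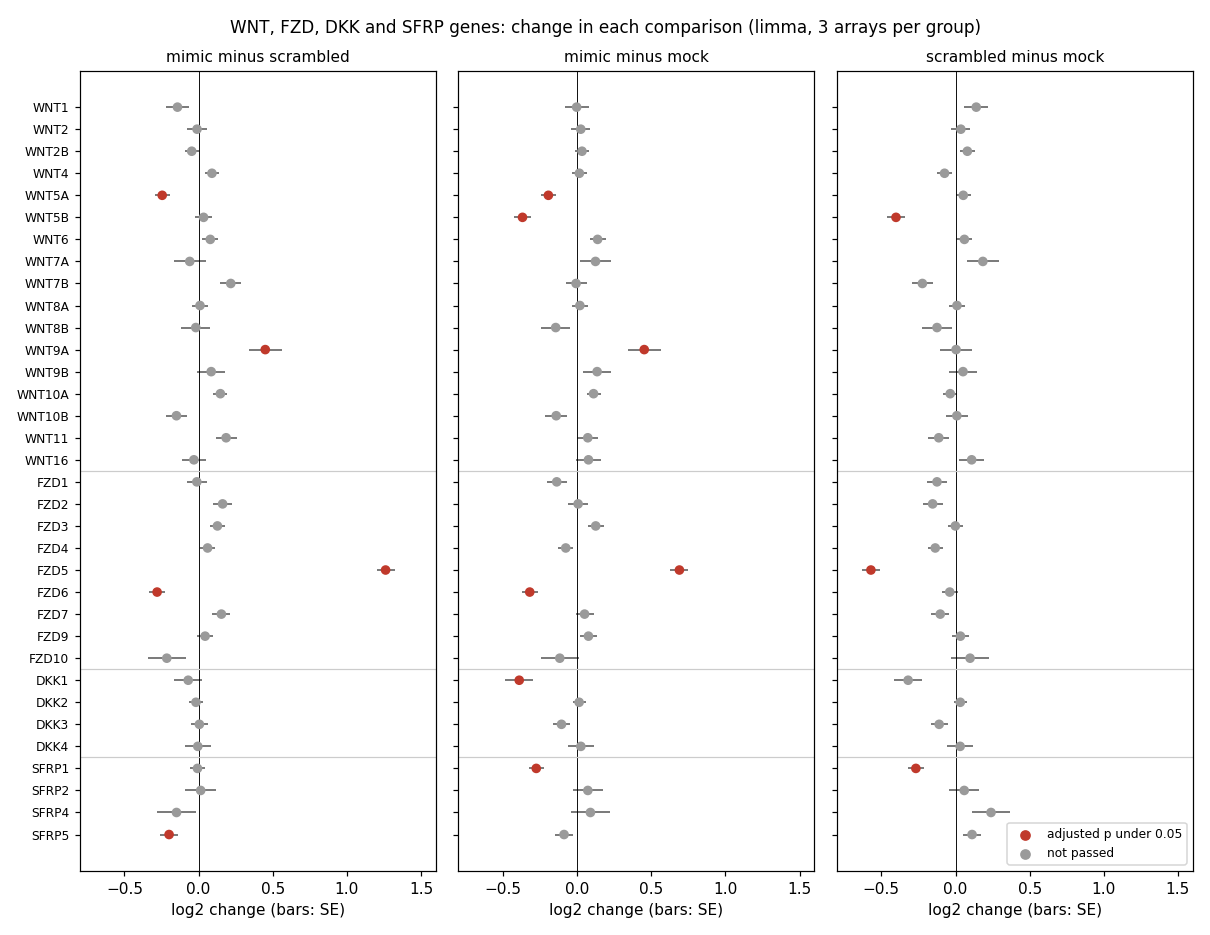
Log2 change of each of the 34 members in the mimic against the scrambled control (left), the mimic against mock (middle) and the scrambled control against mock (right), with bars for the standard error of limma's fit over 3 arrays per group and red points at an adjusted p under 0.05. FZD5 lies apart from the rest, at 1.26 and 0.69 with the mimic and at -0.57 with the scrambled control.

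Among the receptors, FZD5 rose and FZD6 fell with the mimic against both controls, and the other 7 were not called in any comparison. FZD5, known as a receptor for WNT5A and WNT7A among others, stood at 0.72, 0.59 and 0.70 in mimic arrays, at -0.53, -0.60 and -0.65 in scrambled arrays and at -0.13, 0 and 0.06 in mock arrays. No groups overlapped, with mimic arrays highest, mock arrays between and scrambled arrays lowest. FZD5 was 2.40-fold higher in the mimic than in the scrambled control (a log2 change of 1.26 with SE 0.06, adjusted p = 4.96e-07) and 1.61-fold higher than in mock (a log2 change of 0.69 with SE 0.06, adjusted p = 2.84e-05). The scrambled control was itself 1.49-fold lower than mock (a log2 change of -0.57 with SE 0.06, adjusted p = 0.000669), so the size of the rise depends on which control is used. These values are those of the probe set 221245_s_at. The other probe set, 206136_at, in the class of 4 to 8, had log2 changes of 0.20, 0.14 and -0.07 and was not called (adjusted p = 0.16, 0.328 and 0.691). Averaged over both probe sets FZD5 was still called, at 0.73, 0.41 and -0.32.

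FZD6, a receptor known for planar polarity in mouse skin, stood at -0.22, -0.24 and -0.40 in mimic arrays, against -0.04, 0 and 0.02 in scrambled arrays and 0.03, 0.06 and 0.00 in mock arrays. All 3 mimic arrays lay below all 6 control arrays. FZD6 fell by a factor of 1.21 against the scrambled control (a log2 change of -0.28 with SE 0.05, adjusted p = 0.00535) and 1.25 against mock (a log2 change of -0.32 with SE 0.05, adjusted p = 0.00208), and the controls differed by -0.04 (SE 0.05, adjusted p = 0.704). It is read by 1 probe set. Of the uncalled receptors, FZD3, which guides axons in mice, had mimic arrays at 0.04, 0.07 and 0.12, above all scrambled arrays at -0.02, 0.01 and -0.15 and all mock arrays at 0.00, -0.09 and -0.06. Its log2 changes of 0.13 (SE 0.05, adjusted p = 0.15) and 0.13 (SE 0.05, adjusted p = 0.133) did not pass. FZD7, a receptor often abundant in cancers, had 0.15 against the scrambled control and 0.05 against mock (SE 0.06, adjusted p = 0.125 and 0.632). FZD2 had 0.16 and 0.01, FZD4 0.06 and -0.08, FZD1 -0.01 and -0.14, FZD9 0.04 and 0.08, and FZD10 -0.21 and -0.12 for the same comparisons. FZD10 had the widest standard error of the receptors (0.13) and was in the class below 4.

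Among the 17 ligands, WNT5A fell and WNT9A rose with the mimic against both controls, and WNT5B was lower than in mock with either RNA. WNT5A, the best known ligand that acts without beta-catenin, stood at -0.14, -0.18 and -0.20 in mimic arrays, against 0.07, 0.05 and 0.09 in scrambled arrays and -0.05, 0 and 0.11 in mock arrays. The mimic arrays lay below all 6 controls. It was 1.19-fold lower than in the scrambled control (a log2 change of -0.25 with SE 0.05, adjusted p = 0.00677) and 1.14-fold lower than in mock (a log2 change of -0.19 with SE 0.05, adjusted p = 0.0202). Its other probe set, 213425_at in the class of 4 to 8, stood at -0.46, -0.52 and -0.31 with the mimic, 0, 0.08 and -0.07 with the scrambled control and 0.01, 0.04 and 0.04 in mock, a larger fall (a log2 change of -0.44 with SE 0.06, adjusted p = 0.00143 and a log2 change of -0.46 with SE 0.06, adjusted p = 0.000901). The mean of both gave -0.34 and -0.33. On the probe set of the gene value alone the call against mock ended without mock replicate 2 or 3 (adjusted p = 0.0503 and 0.0683) and without mimic replicate 2 or 3 (0.0547 and 0.0705).

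WNT9A, a ligand known from joint and skeletal development in mice, stood at 0.52, 0.20 and 0.18 in mimic arrays, against -0.23, 0 and -0.22 in scrambled arrays and -0.35, -0.12 and 0 in mock arrays. The mimic arrays lay above all 6 controls, with replicate 1 the highest, and the 2 control groups overlapped. The gene was 1.37-fold higher than in the scrambled control (a log2 change of 0.45 with SE 0.11, adjusted p = 0.0187) and 1.37-fold higher than in mock (a log2 change of 0.45 with SE 0.11, adjusted p = 0.015). The call against the scrambled control ended without mimic replicate 1 (log2 change 0.34, adjusted p = 0.0614), without scrambled replicate 1 or 3 (0.0721 and 0.0682) and when both probe sets were averaged (0.22, adjusted p = 0.0547), and the call against mock ended without mock replicate 1 (0.0591). The other probe set, 1553045_at in the class below 4, was at -0.02 and 0.15, and with the mean of both the change against mock was 0.30.

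WNT5B, a close relative of WNT5A, stood at -0.02, -0.11 and -0.10 in mimic arrays and -0.11, -0.16 and -0.06 in scrambled arrays, both below mock arrays at 0.41, 0.24 and 0.23. Mimic and scrambled arrays overlapped. The gene was 1.29-fold lower in the mimic than in mock (a log2 change of -0.37 with SE 0.06, adjusted p = 0.0013) and 1.32-fold lower in the scrambled control than in mock (a log2 change of -0.40 with SE 0.06, adjusted p = 0.00338), while mimic and scrambled control differed by 0.03 (SE 0.06, adjusted p = 0.778). With the mean of its 3 probe sets, of which 230299_s_at lies below 4, the changes against mock were -0.23 and -0.21.

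The remaining 14 ligands were not called in any comparison. WNT10A stood at 0.10, 0.04 and 0.10 in mimic arrays, above the scrambled arrays at 0, -0.12 and -0.07 and the mock arrays at -0.01, -0.02 and -0.06, with a log2 change against the scrambled control of 0.15 (SE 0.05, adjusted p = 0.0633). Of its 2 probe sets 223709_s_at passed on its own (a log2 change of 0.26 with SE 0.07, adjusted p = 0.0293), and 229154_at was at 0.03. For WNT7B the log2 difference was 0.22 (adjusted p = 0.0679, SE 0.07) against the scrambled control and -0.01 against mock, and WNT11 0.19 and 0.07. WNT7A and WNT4, which pattern the female tract in mice, had -0.06 and 0.09 against the scrambled control and 0.12 and 0.02 against mock. The beta-catenin pathway ligand WNT1 was at -0.14 and 0.00, its genomic neighbour WNT10B at -0.15 and -0.14. WNT2, WNT2B, WNT6, WNT8A, WNT8B, WNT9B and WNT16 lay between -0.05 and 0.08 against the scrambled control and between -0.14 and 0.14 against mock. Standard errors of the ligands ran from 0.05 to 0.11, so changes of the size seen for WNT5A could be missed for the noisier ones.

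Of the 8 antagonists, DKK1 and SFRP1 were lower than in mock with the mimic, SFRP5 was lower than in the scrambled control, and the other 5 were not called. DKK1, which blocks LRP5 and LRP6, stood at -0.10, -0.02 and -0.09 in mimic arrays, 0, 0.22 and -0.22 in scrambled arrays and 0.32, 0.41 and 0.23 in mock arrays. Mimic arrays lay below all mock arrays, and the scrambled arrays spread widely across the mimic ones. DKK1 was 1.31-fold lower than in mock with the mimic (a log2 change of -0.39 with SE 0.09, adjusted p = 0.0145), a call that ended without mock replicate 2 (adjusted p = 0.0572), and the change against the scrambled control was -0.07 (SE 0.09, adjusted p = 0.7). The scrambled control against mock gave -0.32 (SE 0.09, adjusted p = 0.0634). It passed among genes of level 8 or more (0.025), with the replicate number as a block (0.0307) and without scrambled replicate 2 (0.0168).

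SFRP1, a WNT-binding antagonist often silenced in carcinomas, stood at -0.01, -0.09 and -0.04 in mimic arrays and -0.03, 0.01 and -0.10 in scrambled arrays, against 0.30, 0.22 and 0.16 in mock arrays. All 6 arrays of cells given an RNA lay below the 3 mock arrays. It was 1.21-fold lower in the mimic than in mock (a log2 change of -0.28 with SE 0.05, adjusted p = 0.00368) and 1.20-fold lower in the scrambled control than in mock (a log2 change of -0.27 with SE 0.05, adjusted p = 0.0126), with -0.01 between mimic and scrambled control (SE 0.05). The call of the scrambled control against mock ended without mock replicate 1 (adjusted p = 0.0506) and without scrambled replicate 3 (0.0515). Its 4 probe sets differed, from -0.57 (202037_s_at, adjusted p = 8.59e-05) to 0.07 (228413_s_at, adjusted p = 0.613) for the mimic against mock. SFRP5 stood at -0.12, -0.03 and -0.12 in mimic arrays, 0.04, 0.07 and 0.22 in scrambled arrays and 0, 0.06 and -0.07 in mock arrays, and the mimic arrays overlapped the mock arrays. Its log2 change against the scrambled control was -0.20 (SE 0.06, adjusted p = 0.0486), and the call ended in 11 of 15 alternatives, with adjusted p up to 0.161.

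The control probe sets for ACTB, whose 3′ and 5′ ends are read apart to follow RNA quality, also set the mock arrays apart. Their 3′ minus 5′ centred difference was -0.05, -0.02 and 0.11 in mimic arrays, 0.10, 0.14 and 0.06 in scrambled arrays and -0.16, -0.17 and -0.21 in mock arrays. It was thus lowest in mock, where DKK1, SFRP1 and WNT5B were highest. The same difference for GAPDH averaged -0.02 ± 0.03, 0.01 ± 0.02 and 0.03 ± 0.03 in the mimic, scrambled and mock groups (SD, n = 3). The part of the ACTB difference in the changes against mock was not tested.

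DKK3, a divergent family member that is often low in tumours, had log2 changes of 0.01 and -0.11 for the mimic against the scrambled control and against mock (SE 0.06). The 2 probe sets in that gene value went opposite ways against the scrambled control. There 214247_s_at was at -0.13 (adjusted p = 0.265), with its mimic arrays below all controls, and 230508_at was at 0.14 (adjusted p = 0.252). Against mock they were at -0.21 (adjusted p = 0.0511) and -0.004 (adjusted p = 0.982). Of its 6 probe sets, 202196_s_at in the class of 4 to 8, which is not in the gene value, stood at 0, -0.21 and -0.05 with the mimic and 0.00, 0.05 and -0.08 with the scrambled control, against 0.26, 0.19 and 0.40 in mock. That probe set alone was called against mock, with the mimic (a log2 change of -0.37 with SE 0.07, adjusted p = 0.00649) and with the scrambled control (a log2 change of -0.29 with SE 0.07, adjusted p = 0.0428). DKK2 and DKK4 had -0.02 and -0.01 against the scrambled control and 0.01 and 0.03 against mock. SFRP2 had 0.01 and 0.07 and SFRP4 -0.15 and 0.09, SFRP4 with the widest standard error of all members (0.13).

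**Figure D2:**
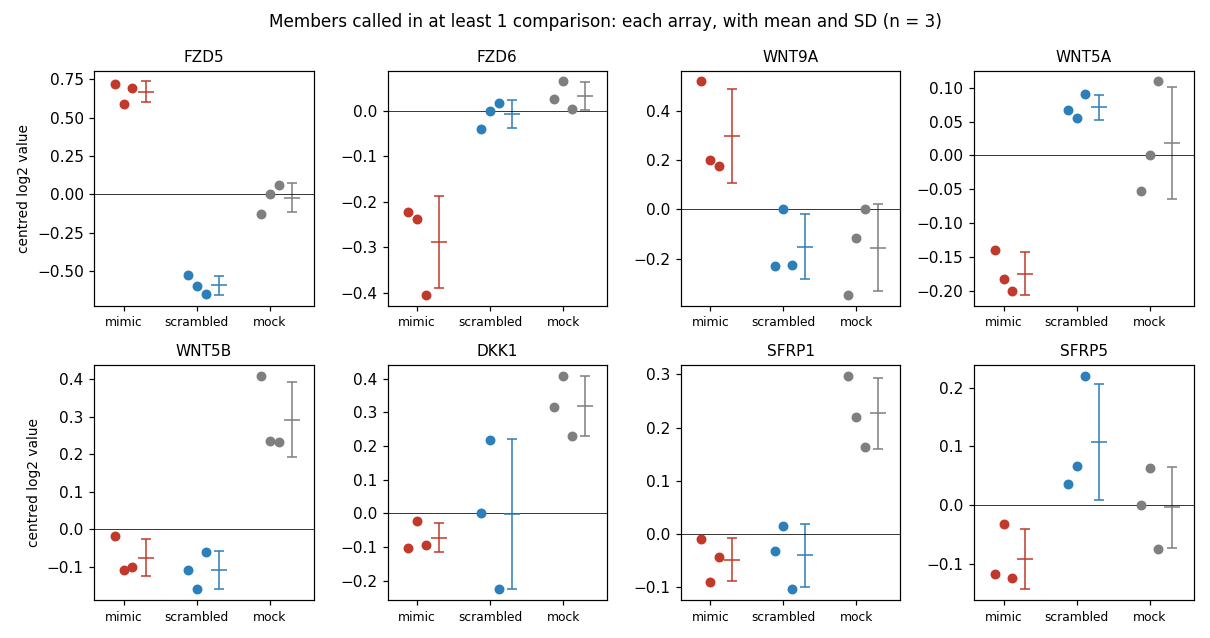
Centred log2 value in each array (points) for the 8 members called in at least 1 comparison, by group from mimic to scrambled to mock, with the mean and SD of 3 arrays beside them. FZD5 separates all 3 groups, FZD6, WNT5A and WNT9A set the mimic arrays apart from both controls, and WNT5B and SFRP1 set the mock arrays apart from both groups given an RNA.

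All 3 mimic arrays lay above all 6 control arrays for FZD3, FZD5, WNT9A and WNT10A (4 of 34 members, 11.8%, beside 8.95% of all genes) and below them for FZD6 and WNT5A (2 of 34, 5.88%, beside 9.04%). By level class, 10 members were at 8 or more, 22 at 4 to 8 and 2 below 4. At 8 or more were 5 of the 9 receptors and 2 of the 17 ligands, beside 43.7% of all genes, and 4 of the 8 members called lay there. Taken as single probe sets, 3 of 69 were higher and 3 lower in the mimic against the scrambled control, beside 5.63% and 5.25% of all 41091 probe sets with 1 symbol. Against mock 3 were higher and 9 lower, beside 6.25% and 8.45%, and in the scrambled control against mock 0 were higher and 6 lower, beside 1.82% and 3.92%. The 3 higher than in mock with the mimic were those of FZD5 and WNT9A already given and 219683_at of FZD3 (a log2 change of 0.33 with SE 0.08, adjusted p = 0.0222), whose 3 fellow probe sets lay between 0.01 and 0.11. Of the 69 probe sets, 31 have the suffix _s_at or _x_at, by which Affymetrix marks probes shared between transcripts or likely to cross-hybridise, so signal from relatives cannot be told apart there.

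**Figure D3:**
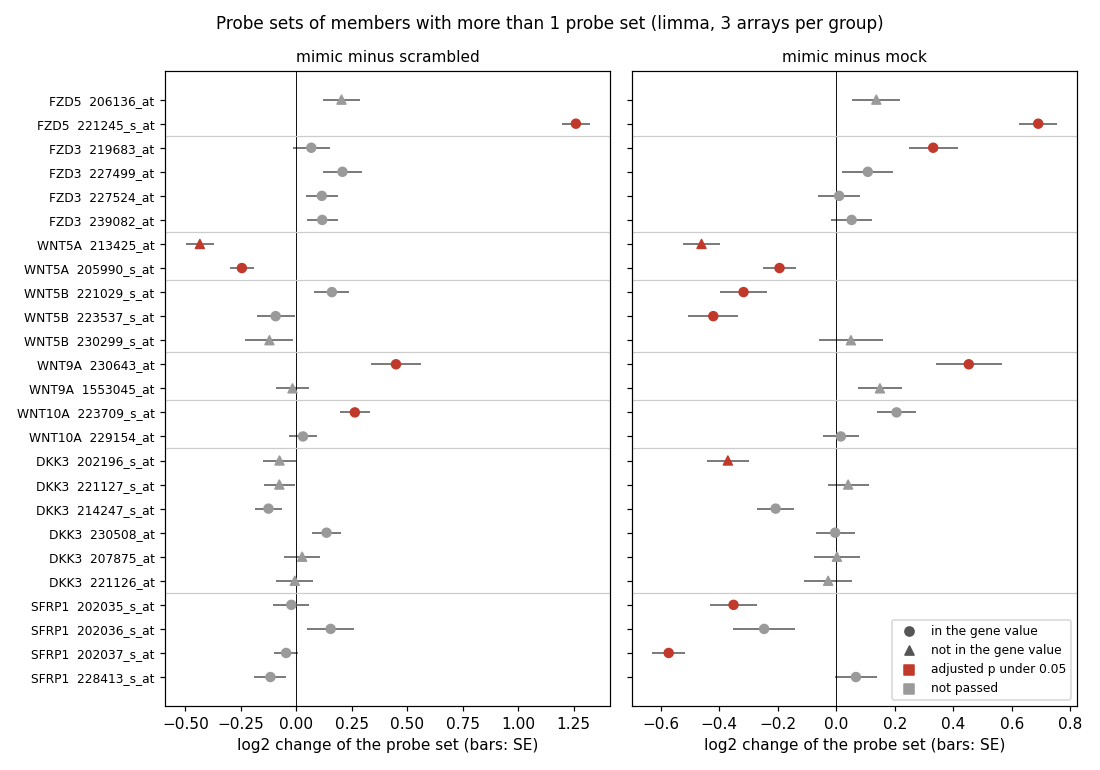
Log2 change of each probe set of 8 members in the mimic against the scrambled control (left) and against mock (right), with bars for the standard error, circles for probe sets in the gene value and triangles for the others. Both WNT5A probe sets lie left of 0, the FZD5 probe sets differ (1.26 and 0.20 on the left), and 3 of the 4 SFRP1 probe sets lie left of 0 against mock.

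Beyond the families, 66 of 68 other pathway genes were measured, among them ligand export, co-receptors, R-spondin receptors, the destruction complex, TCF factors with their partners, and polarity genes. In the mimic against the scrambled control 7 were higher and 7 lower (10.6% each), beside 7.63% and 7.01% of all genes. Against mock 7 were higher and 12 lower (10.6% and 18.2%), beside 8.39% and 10.2%, and in the scrambled control against mock 3 were higher and 6 lower (4.55% and 9.09%), beside 2.74% and 5.26%. WLS, the carrier that takes WNT proteins to the cell surface, stood at -0.31, -0.41 and -0.36 in mimic arrays, against 0.07, 0.08 and 0.06 in scrambled arrays and -0.02, 0.05 and 0.06 in mock arrays. Mimic arrays lay below all controls, and all 3 of its probe sets were called lower against the scrambled control. The gene was 1.35-fold and 1.31-fold lower than in the scrambled control and mock (log2 change -0.43 and -0.39, SE 0.04, adjusted p = 9.24e-05 and 0.000179). DACT1, a protein that binds the signal relay protein Dishevelled, stood at -0.49, -0.64 and -0.42 with the mimic, against 0, 0.20 and 0 with the scrambled control and -0.04, 0.26 and 0.21 in mock. It was 1.50-fold and 1.58-fold lower (log2 change -0.58 and -0.66, SE 0.09, adjusted p = 0.00122 and 0.00053), on its 1 probe set. Outside the 6 genes of smallest p, others were also called against both the scrambled control and mock. These were RSPO3 (0.49 and 0.33), VANGL1 (0.15 and 0.19), ROR2 (-0.43 and -0.55), KREMEN2 (-0.20 and -0.29) and VANGL2 (-0.22 and -0.47). Against the scrambled control VANGL1 and KREMEN2 passed narrowly (adjusted p = 0.0465 and 0.0451). The calls of these genes were not followed singly through the alternatives. VANGL2 was also lower in the scrambled control than in mock (-0.25, adjusted p = 0.0163).

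Of the 4 Groucho corepressors listed, which bind TCF factors, TLE1 and TLE4 rose with the mimic against both controls, while TLE3 fell against mock. TLE1 stood at 0.41, 0.25 and 0.22 in mimic arrays, -0.06, -0.12 and -0.09 in scrambled arrays and -0.09, -0.01 and 0.06 in mock arrays (log2 change 0.38 and 0.31, SE 0.06, adjusted p = 0.00141 and 0.00474 against the 2 controls). Against the scrambled control 4 of its 5 probe sets were called. TLE4 stood at 0.35, 0.16 and 0.17 in mimic arrays, -0.15, -0.25 and -0.18 in scrambled arrays and 0, -0.04 and 0.02 in mock arrays (log2 change 0.42 and 0.24, SE 0.06, adjusted p = 0.000573 and 0.016 against the 2 controls). Against the scrambled control 2 of its 5 probe sets were called. For TLE4 the call against mock ended when its probe sets were averaged (0.10, adjusted p = 0.383) and without mock replicate 2 (0.0602). TLE3, given here after its values were seen, stood at -0.11, -0.11 and -0.16 in mimic arrays, below all scrambled arrays at 0, 0.08 and -0.05 and all mock arrays at 0.17, 0.13 and 0.15. Its log2 change was -0.27 against mock (SE 0.05, adjusted p = 0.00186) and -0.13 against the scrambled control (adjusted p = 0.0801), which passed when its probe sets were averaged (-0.26, adjusted p = 0.00859) and among genes of level 8 or more (0.0277). TLE2 was at -0.18 and -0.26 against the scrambled control and mock (adjusted p = 0.322 and 0.124).

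TPBG and LGR4 differed between mimic and scrambled control where the scrambled arrays stood apart from both other groups. TPBG, an inhibitor of beta-catenin signalling in zebrafish, stood at 0.10, 0 and 0.18 in mimic arrays, -0.32, -0.35 and -0.30 in scrambled arrays and -0.05, 0.02 and 0.06 in mock arrays. Its log2 change was 0.41 against the scrambled control (SE 0.05, adjusted p = 0.000446), 0.08 against mock (adjusted p = 0.357) and -0.33 for the scrambled control against mock (adjusted p = 0.006). LGR4, a receptor for R-spondins, stood at -0.14, -0.05 and 0 in mimic arrays, 0.29, 0.30 and 0.26 in scrambled arrays and -0.20, 0 and -0.07 in mock arrays, with log2 changes for the mimic against the scrambled control, the mimic against mock and the scrambled control against mock of -0.35 (SE 0.06, adjusted p = 0.00235), 0.03 (adjusted p = 0.821) and 0.37 (adjusted p = 0.0051). In both genes 1 probe set carried the call, and with the mean of their probe sets the calls ended (adjusted p = 0.183 and 0.052 for TPBG, 0.342 and 0.395 for LGR4, mimic against scrambled and scrambled against mock).

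Of 23 genes reported elsewhere as targets of beta-catenin, 21 were measured, 7 of which also stand among the pathway genes. In the mimic against the scrambled control 1 was higher and 2 lower (4.76% and 9.52%), beside 7.63% and 7.01% of all genes. Against mock 1 was higher and 7 lower (4.76% and 33.3%), beside 8.39% and 10.2%, and in the scrambled control against mock 1 was higher and 3 lower (4.76% and 14.3%), beside 2.74% and 5.26%. BMP4, a secreted growth factor of the TGF-beta family, stood at 0.54, 0.12 and 0.20 in mimic arrays, -0.18, -0.11 and -0.13 in scrambled arrays and 0, -0.07 and 0.08 in mock arrays (a log2 change of 0.43 with SE 0.09, adjusted p = 0.0103 against the scrambled control, and 0.28, adjusted p = 0.0594, against mock). MYC, a growth-promoting transcription factor, stood at -0.10, -0.23 and -0.30 in mimic arrays, -0.01, 0.04 and 0 in scrambled arrays and 0.07, 0.16 and 0.12 in mock arrays (a log2 change of -0.22 with SE 0.06, adjusted p = 0.0205 and a log2 change of -0.33 with SE 0.06, adjusted p = 0.00184 against the 2 controls), and its call against the scrambled control ended without mimic replicate 2 or 3 or scrambled replicate 2 or 3, with adjusted p up to 0.0786. ID2, an inhibitor of helix-loop-helix factors, was at -0.18 (SE 0.05, adjusted p = 0.0474), a call that ended in 11 of 16 alternatives.

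Of the feedback genes that beta-catenin induces in many tissues, AXIN2, LGR5 and NKD1 did not pass in the mimic against either control, except LGR5 under 1 alternative. The genes of this paragraph were chosen after their values were seen. AXIN2 had log2 changes of 0.09 and 0.00 for the mimic against the scrambled control and mock (adjusted p = 0.206 and 0.956), LGR5 had -0.17 and -0.16 (0.349 and 0.373), and NKD1 had -0.08 and 0.11 (0.292 and 0.131). NKD1 was called higher in the scrambled control than in mock (0.19, adjusted p = 0.0294), a call that ended in 7 of 15 alternatives, with adjusted p up to 0.0927. Of the same list, LEF1 (0.14 and 0.14), ZNRF3 (0.12 and 0.09), APCDD1 (0.10 and 0.08), SP5 (0.09 and 0.11) and NOTUM (0.06 and 0.10) were likewise not called with the mimic. Nor were CCND1 (0.09 and 0.11), ASCL2 (-0.10 and -0.01) and PPARD (-0.16 and 0.06). JUN (-0.16 and -0.29), EPHB3 (-0.09 and -0.20) and TNFRSF19 (-0.07 and -0.17) went down and were called lower against mock only. LGR5 stood at -0.48, 0 and 0 in mimic arrays, so its value rests on mimic replicate 1, and without that array its log2 changes were -0.01 and 0.00. Averaged over its probe sets LGR5 was called lower, at -0.36 and -0.38 (adjusted p = 0.0113 and 0.00613). The ubiquitin ligase gene RNF43 was the target higher than in mock (a log2 change of 0.34 with SE 0.10, adjusted p = 0.0335), and it was at 0.22 against the scrambled control (adjusted p = 0.171). Its mimic arrays stood at 0.45, 0.00 and 0.22, its scrambled arrays at 0, 0.07 and -0.06 and its mock arrays at -0.08, -0.04 and -0.21. The RNF43 call against mock ended in 7 of 15 alternatives, among them without mimic replicate 1 (log2 change 0.22, adjusted p = 0.0836), without mimic replicate 3 (0.0797), without mock replicate 1, 2 or 3 (0.0719, 0.053 and 0.112) and without scrambled replicate 1 (0.0517). Of the 7 lower than in mock, the adhesion receptor gene CD44 (-0.65 with the mimic and -0.58 with the scrambled control, both against mock), MMP7 (-0.36 and -0.33) and FOSL1 (-0.28 and -0.34) were also the 3 lower in the scrambled control than in mock, where no adjusted p of these 3 exceeded 0.00815. Between mimic and scrambled control CD44, MMP7 and FOSL1 had -0.07, -0.04 and 0.06 (adjusted p = 0.528, 0.667 and 0.591), and the ACTB difference given above also sets the mock arrays apart.

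**Figure D4:**
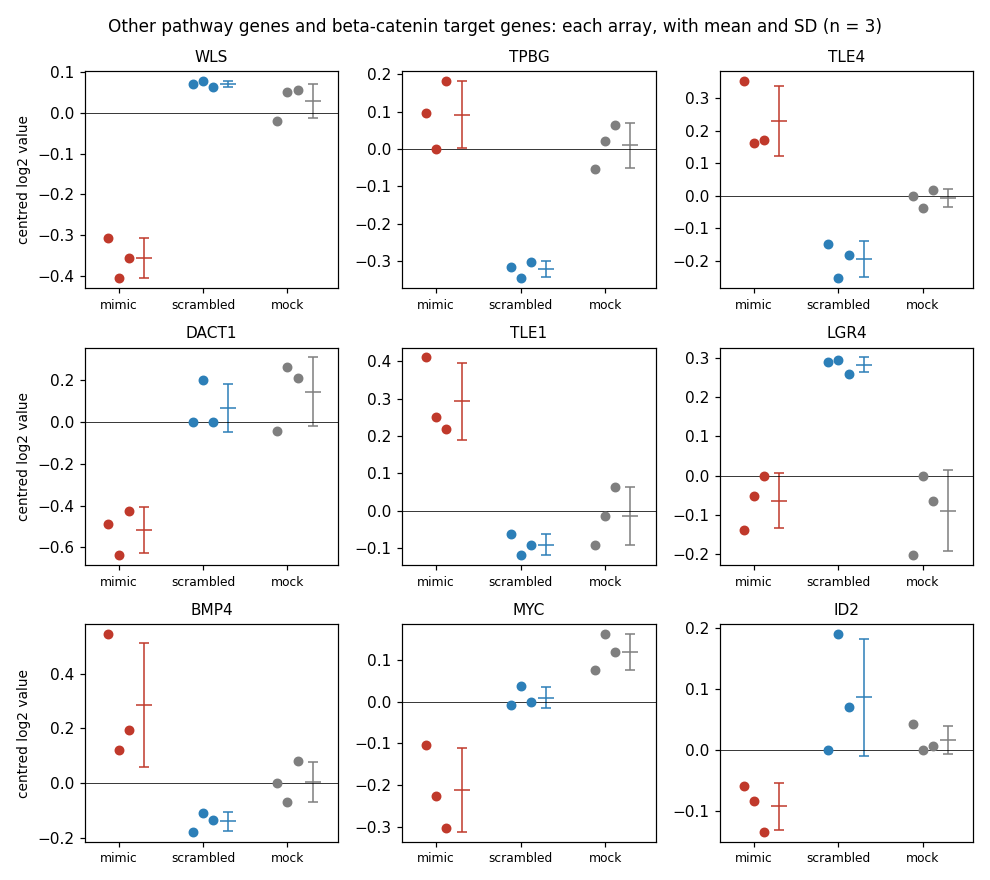
Centred log2 value in each array (points) for 6 other pathway genes and 3 reported beta-catenin targets, by group from mimic to scrambled to mock, with the mean and SD of 3 arrays beside them. WLS and DACT1 are lower and TLE1 higher in the mimic arrays than in both controls, while TPBG and LGR4 set the scrambled arrays apart.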

How the data were processed

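Total RNA was taken up in Trizol from Hec50 cells and made into biotin-labelled RNA for Affymetrix arrays of 1 colour, per the labels' protocols. The deposited values are log2 expression of 54675 probe sets on 9 arrays. The log2 table as deposited is centred, since 100% of probe sets have a median of exactly 0, and more than 1 of the 9 values was 0 in 48.9% of them, which can lower the spread between arrays. The probe summary, the normalization and the base of the logarithm are not given in the sources used here, and base 2 is assumed in every fold. Signal over background is unknown, and precision is set by the number of arrays.

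Symbols came from the platform's annotation of 2016, and 41091 probe sets with a single symbol were used. A gene's value is the mean of its probe sets in its highest level class. The 3 group means were estimated from the 9 arrays by limma 3.58.1 (lmFit, eBayes, two-sided) under R 4.3.3, with Benjamini-Hochberg adjustment over 19775 genes, or over 41091 probe sets where a probe set is named. The fit was tested on simulated data, where 5.42% of calls were false and 88.4% of log2 changes of 0.5 were found. Smaller changes, such as those of most called members, were not simulated. Members called in at least 1 comparison, or with all mimic arrays beyond all controls, are given by array, and of each other list up to 6 called genes with the smallest p in the mimic against the scrambled control. Members and lists were chosen with earlier results of these data known. Alternatives were the probe set summary, quantile normalization, level filters, the arrays fitted, a robust prior, the replicate number as a block, and leaving out each array. Between replicates the SD of differences over genes was 0.111 to 0.148.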

Additional observations from a re-analysis of the deposited data

How the results depend on the processing

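No called change of a member reversed in the alternatives run. Of 233 comparisons of 15 called member values with their alternatives, 210 kept direction and call and 23 lost the call, those named in the report. With the mean of all probe sets 1 member was higher in the mimic against the scrambled control in place of 2. At a level of 8 or more, where 10 members remain, 1 was higher against the scrambled control, and 1 was higher and 3 lower against mock in place of 2 and 5. After quantile normalization 5 members were lower in the scrambled control than in mock in place of 3. Leaving out 1 array gave 1 to 3 higher and 2 to 3 lower against the scrambled control, 1 to 2 higher and 3 to 5 lower against mock, and 0 higher and 2 to 4 lower in the scrambled control against mock. The count of 1 higher arose without scrambled replicate 3 or mimic replicate 1, and against mock without mock replicate 1, and that of 3 lower without mock replicate 2. Over all genes the scrambled control against mock held 541 higher and 1040 lower, from 212 to 827 and from 545 to 1468 over the alternatives.

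Deviations of same-numbered arrays from their group means correlated at -0.15 to 0.12, so the numbers were not taken as pairs. With the replicate block, members called were 2 higher and 2 lower against the scrambled control, 2 and 5 against mock, and 0 and 4 in the scrambled control against mock, where DKK1 was the one gained (adjusted p = 0.0307). The SFRP5 call ended there (adjusted p = 0.0785).

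Counts of the other pathway genes, in alternatives chosen after seeing the data, ran from 4 to 7 higher and 5 to 9 lower against the scrambled control and from 2 to 7 and 9 to 15 against mock. Those of reported beta-catenin targets ran from 0 to 3 higher and 0 to 3 lower, and from 0 to 2 and 4 to 7. The cause of these shifts was not tested, apart from filters and left-out arrays, which reduce the genes or arrays tested.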
